A study of Mus musculus with 6 samples.

Results

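The expression of 10 genes of IgE receptor and mast cell signalling was examined in RNA-seq libraries of mouse cells that are labelled as female germline stem cells (FGSCs). The genes were chosen by name, namely the 3 chains of the high-affinity IgE receptor (Fcer1a, Ms4a2 and Fcer1g), the kinases Lyn, Syk and Btk, the adaptors Lat and Lat2, the transcription factor Mitf and the receptor Mrgprb2. All 10 were found among the 55401 genes of the deposited table, which lists Ensembl identifiers. Symbols came from a separate reference, in which Syk has its older symbol Sykb. There were 3 control libraries without treatment and 3 libraries of cells that received 1 μM metformin for 24 h. Both groups came from the same C57BL/6 line beyond passage 20, which was grown on mitotically inactivated STO feeder cells, a line of mouse embryonic fibroblasts. The labels name no vehicle for the control group. They do not say whether the repeats were separate cultures, so the p-values measure only the spread between these libraries, which may be technical. Levels are in FPKM, the fragments mapped to a gene relative to the length of the gene and to the number of mapped fragments in the library, so that levels of different genes can be compared. The depth is not stated, and the step that 1 fragment makes in short genes with a single exon put it at 13400000 to 14000000 fragments per library. No library stood apart, as the SD of the log2 difference between libraries was 0.191 to 0.208 within a group and 0.197 to 0.210 between groups.

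The high-affinity IgE receptor holds IgE on mast cells and basophils, so that antigen can trigger the release of granules. Its alpha chain, Fcer1a, binds IgE, its beta chain, Ms4a2, amplifies the signal, and a pair of gamma chains, Fcer1g, carries the tyrosine motifs that start it. Lyn phosphorylates these motifs, Syk docks on them and phosphorylates the membrane adaptors LAT and LAT2, and Btk takes part in the calcium signal that follows. The gamma chain also serves several receptors for IgG and some C-type lectins. Mitf drives many genes of mast cells and of melanocytes, and Mrgprb2 lets mast cells respond to cationic peptides and drugs without IgE.

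The 3 chains of the IgE receptor had very different levels, and the chain that binds IgE was listed at 0 FPKM in every library. For the beta and gamma chains the groups overlapped. Fcer1a lies on the minus strand of chr1:173221284-173227214 (GRCm38). With a depth of this size, 3 fragments on its 1026 bp of exons in the GENCODE M1 annotation would give 0.209 to 0.218 FPKM. That is the smallest level that could be told from 0 in a single library by this measure, and it covers counting error only. Ms4a2, on the minus strand of chr19:11615523-11623719, had 1.19, 0.82 and 0.94 FPKM in control repeats 1 to 3 and 0.51, 0.84 and 1.08 FPKM in metformin repeats 1 to 3. The groups overlapped, with the lowest value in metformin repeat 1 and the highest in control repeat 1. On the 2756 bp of its annotated exons these levels amount to about 19.7 to 43.9 fragments per library, a length that may differ from the one the authors used. Fcer1g, on the minus strand of chr1:171229572-171234365, had 21.59, 22.89 and 22.01 FPKM in the control group and 21.44, 21.13 and 22.38 FPKM with metformin. The gamma chain was therefore clearly present in all 6 libraries, its groups overlapped, and it exceeded the beta chain in each of them.

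The sequences upstream of the 3 receptor genes are shown because the chains of a single receptor differed so much in level. Each is the 250 bases before the annotated start in the RefSeq table of GRCm38.p6, written 5′ to 3′ on the strand of the gene, with capitals marking the hexamer AGATAA, its form with a last G (AGATAG), its form with a first T (TGATAA) and the form with these changes together (TGATAG), searched on either strand, which are versions of the site that GATA factors bind. The windows are chr1:173227230-173227479 for Fcer1a, chr19:11623720-11623969 for Ms4a2 and chr1:171234350-171234599 for Fcer1g, all on the minus strand.
Fcer1a: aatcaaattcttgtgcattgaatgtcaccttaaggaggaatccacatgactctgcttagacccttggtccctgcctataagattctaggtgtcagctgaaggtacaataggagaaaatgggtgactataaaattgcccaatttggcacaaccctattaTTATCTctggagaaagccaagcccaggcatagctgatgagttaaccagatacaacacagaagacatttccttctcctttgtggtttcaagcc
Ms4a2: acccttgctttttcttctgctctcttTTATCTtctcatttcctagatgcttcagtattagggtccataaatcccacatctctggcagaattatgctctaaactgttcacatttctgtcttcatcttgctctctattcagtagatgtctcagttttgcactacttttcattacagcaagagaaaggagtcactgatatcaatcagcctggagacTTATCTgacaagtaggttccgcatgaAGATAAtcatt
Fcer1g: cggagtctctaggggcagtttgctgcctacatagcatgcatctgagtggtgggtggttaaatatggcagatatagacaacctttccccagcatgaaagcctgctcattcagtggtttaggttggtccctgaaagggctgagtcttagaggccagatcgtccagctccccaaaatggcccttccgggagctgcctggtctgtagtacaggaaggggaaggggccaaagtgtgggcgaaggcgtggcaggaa
The window of Fcer1a held 1 such hexamer, which begins 92 bases before the start. Ms4a2 held 3, beginning 224, 37 and 11 bases before the start, and Fcer1g held 0. Of all 32851 upstream windows of this length, 26.5% held at least 1. CATGTG, a form of the site bound by Mitf, was found on either strand in the window of Fcer1a and not in those of Ms4a2 and Fcer1g, against 12.3% of all windows, and it shares no bases with the hexamers there. Windows were found for 8 of the 10 genes, not for Lyn and Lat2, and since Syk and Mitf have several annotated starts there were 11 windows, of which 6 held such a hexamer. The order of the hexamer counts is not the order of the levels, and a match of letters is a description of the window only.

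All 3 proximal kinases were expressed at a steady level. Lyn, the Src-family kinase that phosphorylates the receptor, lies on the plus strand of chr4:3678115-3813122. It had 23.35, 22.05 and 22.26 FPKM in the control group and 21.74, 20.28 and 22.29 FPKM with metformin, with the lowest value in metformin repeat 2 and overlapping groups. Syk, the tandem SH2 kinase that docks on phosphorylated gamma chains, lies on the plus strand of chr13:52583173-52648792. It had 10.81, 10.19 and 10.19 FPKM in the control group and 10.62, 10.52 and 10.44 FPKM with metformin, and the metformin values all lay inside the range of the control values. Btk, the Tec-family kinase, lies on the minus strand of chrX:134542336-134583570. It had 53.87, 52.08 and 53.1 FPKM in the control group and 53.4, 54.79 and 53.42 FPKM with metformin, again with overlap. Of these kinases Btk was highest and Syk lowest in every library.

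Both membrane adaptors were also present, Lat at the highest level of the 10 genes. Lat, the scaffold on which phospholipase C-gamma and GRB2 assemble, lies on the minus strand of chr7:126363824-126369570. Its level was 60.72, 60.29 and 59.37 FPKM in the control group and 66.74, 61.89 and 65.25 FPKM with metformin. The metformin libraries were all above the control libraries. Of the 7 genes averaging 1 FPKM or more, Lat was the only one whose groups did not overlap. Such a separation was seen for 17.0% of all 10661 genes at that level. Lat2, which encodes the related adaptor NTAL, lies on the minus strand of chr5:134600022-134615025 and had 37.31, 35.7 and 36.43 FPKM in the control group and 35.86, 37.95 and 36.57 FPKM with metformin. The 3′ end of Lat2 overlaps by 1784 bp with Rfc2, which is read from the other strand and had 23.9 FPKM on average, where fragments of these genes cannot be told apart if the authors' counting ignored the strand. Genes of the table that overlap Lyn, Btk, Lat and Mitf had means of at most 0.795 FPKM.

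Mitf, on the plus strand of chr6:97807052-98021349, had 12.1, 11.58 and 11.6 FPKM in the control group and 11.52, 11.43 and 11.61 FPKM with metformin. The groups overlapped, and control repeat 1 was the highest. The table has 1 value per gene, so the Mitf isoforms, which start at different promoters, could not be told apart. Mrgprb2, on the minus strand of chr7:48550965-48558086, was listed at 0 FPKM in all 6 libraries, where 3 fragments on its 2074 bp of exons would give 0.103 to 0.108 FPKM.

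**Figure D1:**
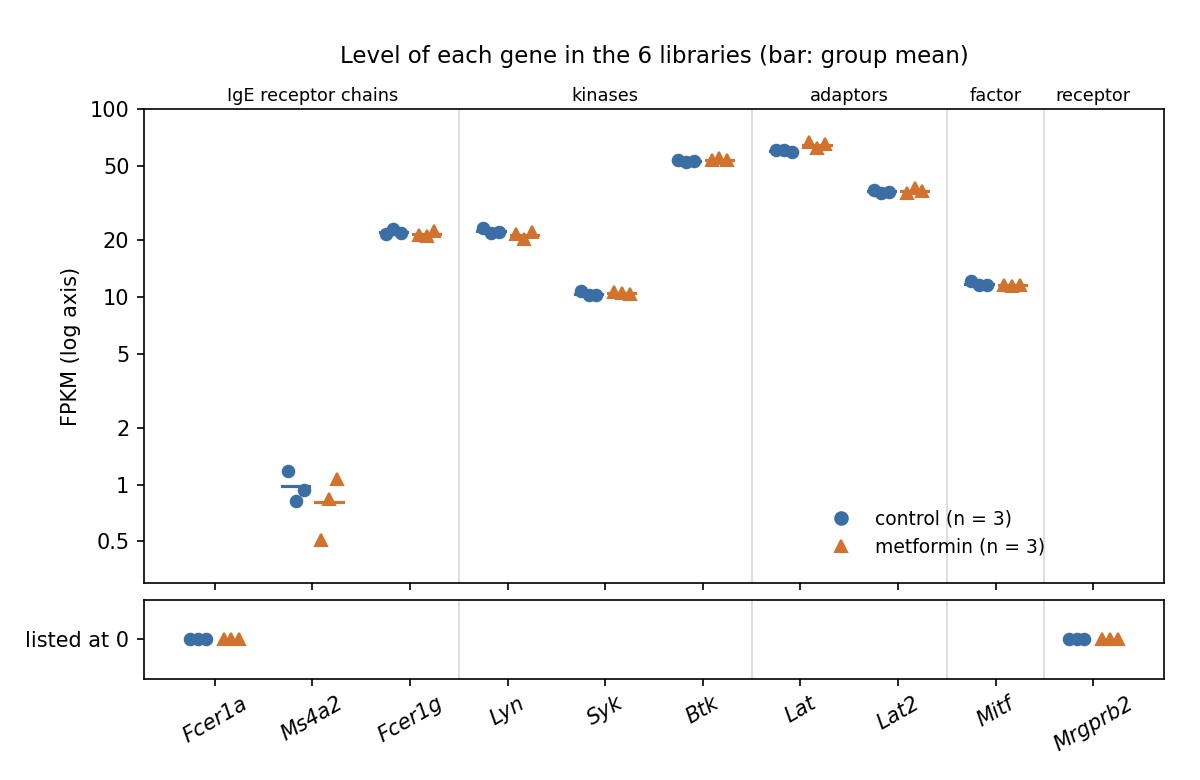
FPKM of each of the 10 genes in each library, on a log axis, with circles for the 3 control and triangles for the 3 metformin libraries, bars for the group means, and a strip below for genes listed at 0. Fcer1a and Mrgprb2 are at 0 in all 6 libraries, Ms4a2 lies between 0.51 and 1.19 FPKM, and the other 7 genes lie between 10.19 and 66.74 FPKM.

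By their mean over the 6 libraries the genes ranked as Lat (62.4 FPKM), Btk (53.4), Lat2 (36.6), Lyn (21.995), Fcer1g (21.907), Mitf (11.6), Syk (10.5) and Ms4a2 (0.897), followed by Fcer1a and Mrgprb2 at 0. Neighbours in this order were apart in all 6 libraries, and their ranges did not overlap, except for Lyn and Fcer1g, and for Fcer1a and Mrgprb2, which were both at 0. Lyn was above Fcer1g in 3 of 6 libraries, so the libraries gave no order for those genes. Lat was 1.17 times as high as Btk on average, and its lowest value of 59.37 FPKM was above the highest Btk value of 54.79 FPKM. Mitf was 1.11 times as high as Syk. The spread between libraries does not cover errors that differ between genes, such as that of the gene length used. Small gaps between genes, such as these, may therefore not be differences in transcript level. Ranked among all genes of the table by mean level, Lat was number 902, Btk 1076 and Syk 4937. The spread over the 6 libraries, as a coefficient of variation, was 1.67% to 4.74% for the 7 genes above 10 FPKM and 26.4% for Ms4a2.

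Whether metformin altered these genes was tested with limma on log2(FPKM + 1), fitted to the 10661 genes that averaged 1 FPKM or more and adjusted over all of them by the Benjamini-Hochberg method. The 7 genes above 10 FPKM entered this test, whereas Ms4a2, Fcer1a and Mrgprb2 were below the limit. At an adjusted p under 0.05 there was none of these 7, against 3 of all genes tested (0.0281%). At an unadjusted p under 0.05 there was 1 of 7, against 10.8% of all genes tested. That gene was Lat, which went from 60.1 ± 0.690 to 64.6 ± 2.48 FPKM (SD, n = 3 each), 1.07 times the control mean. Its log2 difference was 0.10 (standard error 0.03, 95% interval 0.03 to 0.18, adjusted p = 0.367 from limma), and it ranked 396 by p among the genes tested. The 2 groups of libraries did not overlap for Lat alone (exact permutation test, two-sided, p = 0.1, and 3 libraries against 3 allow no smaller value), and 17.0% of all genes tested showed such a separation.

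The other 6 genes had intervals of the difference that included 0, so that no direction can be given for them. Lyn had a log2 difference of -0.07 (95% interval -0.17 to 0.03), from 22.6 ± 0.698 to 21.4 ± 1.04 FPKM (SD, n = 3 each), and adjusted p = 0.580 from limma. Fcer1g had a log2 difference of -0.03 (95% interval -0.12 to 0.05), from 22.2 ± 0.663 to 21.65 ± 0.651 FPKM (SD, n = 3 each). Btk had 0.02 on the same scale, with an interval of -0.03 to 0.08. For Syk, Lat2 and Mitf the log2 differences were 0.02, 0.01 and -0.03, and the widest of their intervals, that of Syk, ran from -0.07 to 0.10. Adjusted p-values of these 6 genes ranged from 0.580 to 0.918 (limma). Over the 7 genes, the lowest bound of an interval was 0.889 times and the highest 1.13 times the control level, on the scale of FPKM + 1. For Ms4a2 the mean was 0.983 ± 0.189 FPKM in the control group and 0.810 ± 0.286 FPKM with metformin (SD, n = 3 each, two-sided exact permutation test, p = 0.5). When all genes above 0 in at least 1 library were tested, its log2 difference was -0.14 with an interval of -0.49 to 0.21, so at this depth a difference of moderate size could not be seen for the beta chain.

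**Figure D2:**
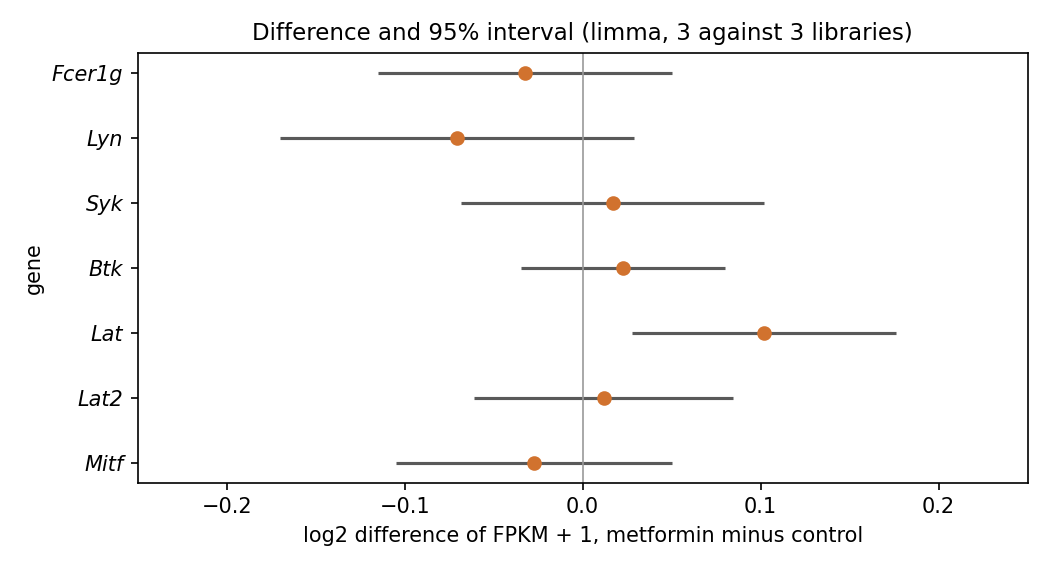
Log2 difference of FPKM + 1, metformin minus control, for the 7 genes that could be tested, with points for the limma estimate and lines for its 95% interval. The interval of Lat, 0.03 to 0.18, is the 1 of the 7 that does not reach 0, and no gene passed the adjustment over all genes.

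The genes that work around these 10 were read from the same fit in 10 lists. Of 137 listed genes, 132 were found in the table and 90 had a mean of at least 1 FPKM. No gene of the lists had an adjusted p under 0.05, and at an unadjusted p under 0.05 there were 8 higher and 1 lower with metformin, or 10.0% of the 90, beside 643 higher and 513 lower, or 10.8%, of all genes tested. The median log2 difference of the 90 genes was 0.02, beside 0.0041 for all genes tested, with 58 positive and 32 negative values, beside 5580 and 5081 over all genes tested. The groups did not overlap for 13 of the 90 genes (14.4%), beside 17.0% of all genes tested.

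The list of other Fc receptors and partners of the gamma chain was mixed, with 6 of 12 genes at a mean of at least 1 FPKM. Fcgr3, the low-affinity IgG receptor that pairs with the gamma chain, had 21.62 to 24.26 FPKM over the 6 libraries, a range that includes the mean of Fcer1g. Fcgr2b, the inhibitory IgG receptor, had a mean of 12.8 FPKM, the C-type lectin Clec4e 7.58 FPKM and Tyrobp, an adaptor related to the gamma chain, 7.03 FPKM. Fcgr4 and Fcer2a, the low-affinity IgE receptor, had means of 0.0883 and 0.0217 FPKM. Of the 6 tested genes of this list, 0 passed, and the median log2 difference was 0.06.

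Among the other tyrosine kinases, the relatives of Lyn named here were lower than Lyn itself. Fyn, which acts beside Lyn at the receptor, had 6.25 to 7.03 FPKM and Lck a mean of 0.737 FPKM, while Fgr and Blk were listed at 0 in every library. Csk, which inhibits Src-family kinases, had a mean of 89.6 FPKM. Its groups did not overlap, at 87.6 ± 1.28 and 91.6 ± 1.32 FPKM (SD, n = 3 each), with a log2 difference of 0.06 and adjusted p = 0.392 from limma. Tec, a relative of Btk, had a mean of 12.8 FPKM, and Zap70, the relative of Syk, 0.0533 FPKM. All 5 tested kinases had log2 differences above 0, between 0.02 and 0.09, beside 5580 of all 10661 genes tested. Of the 5 kinases 0 passed.

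The scaffolds and adaptors around LAT ranged widely in level, with 7 of 18 at a mean of at least 10 FPKM. The highest was Lcp2, which encodes SLP-76, with a mean of 131 FPKM, followed by Grb2 with 106 FPKM, the exchange factor Vav1 with 34.1 FPKM and the adaptor Nck2 with 28.0 FPKM. Of 17 tested genes, 14 had a positive and 3 a negative log2 difference, beside 5580 and 5081 over all genes tested. Their median was 0.05, and 0 of the 17 passed. In the list of lipid enzymes, Pik3cd, the leukocyte PI3-kinase, had the highest mean of 225 FPKM, followed by Plcg2 at 34.7, Pik3cg at 22.2 and Plcg1 at 12.8 FPKM. Sphk1 was near 0, at 0.01 FPKM, while Sphk2, the other sphingosine kinase, had 8.13 FPKM. Of 8 tested genes 0 passed, with a median log2 difference of 0.0087.

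In the calcium and protein kinase C list, the potassium channel Kcnn4 had 17.0 FPKM, Prkcd 16.4 FPKM, and the calcium sensors Stim2 and Stim1 11.7 and 10.4 FPKM. Prkcb had 0.075 FPKM. The 11 tested genes had a median log2 difference of -0.0011, and 0 of them passed. The RAS and MAP kinase list included Mapk14 (70.6 FPKM), Nras (66.9 FPKM) and Mapk3 (22.3 FPKM). Rasgrp4, an exchange factor typical of mast cells, had 15.2 FPKM, and Rasgrp1 0.0167 FPKM. Hras had the smallest p of all the lists, with 18.5 ± 0.0586 and 20.2 ± 0.0850 FPKM (SD, n = 3 each), a log2 difference of 0.12 and adjusted p = 0.320 from limma. Of the 10 tested genes 0 passed, with a median of 0.05.

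Genes that restrain the signal were led by the phosphatase Ptpn6 (SHP-1) at 74.4 FPKM, Inpp5d (SHIP1) at 32.3 FPKM, the diacylglycerol kinase Dgkz at 32.1 FPKM and Ptpn11 (SHP-2) at 20.8 FPKM. Of 16 tested genes 0 passed, and the median was 0.0047. Cd200r1, an inhibitory receptor, had the lowest log2 difference of the lists, -0.22, from 7.26 ± 0.374 to 6.11 ± 0.705 FPKM (SD, n = 3 each), with adjusted p = 0.394 from limma. The degranulation machinery was present, with Vamp8 at 40.6, Rab27b at 33.9, Vamp3 at 32.6 and Stx4a at 26.2 FPKM, whereas Syt2 and Cplx2 had 0.0683 and 0.00167 FPKM. Its 14 tested genes had a median log2 difference of -0.0075, and 0 passed. The relatives of Mitf were lower than Mitf, with 2.85 FPKM for Tfeb, 1.99 FPKM for Tfe3 and 0 FPKM in every library for Tfec. Of 14 Mrgpr receptors with a row in the table, 12 were listed at 0 throughout, and the highest was Mrgpre with 3.42 FPKM. Neither list had a gene that passed.

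**Figure D3:**
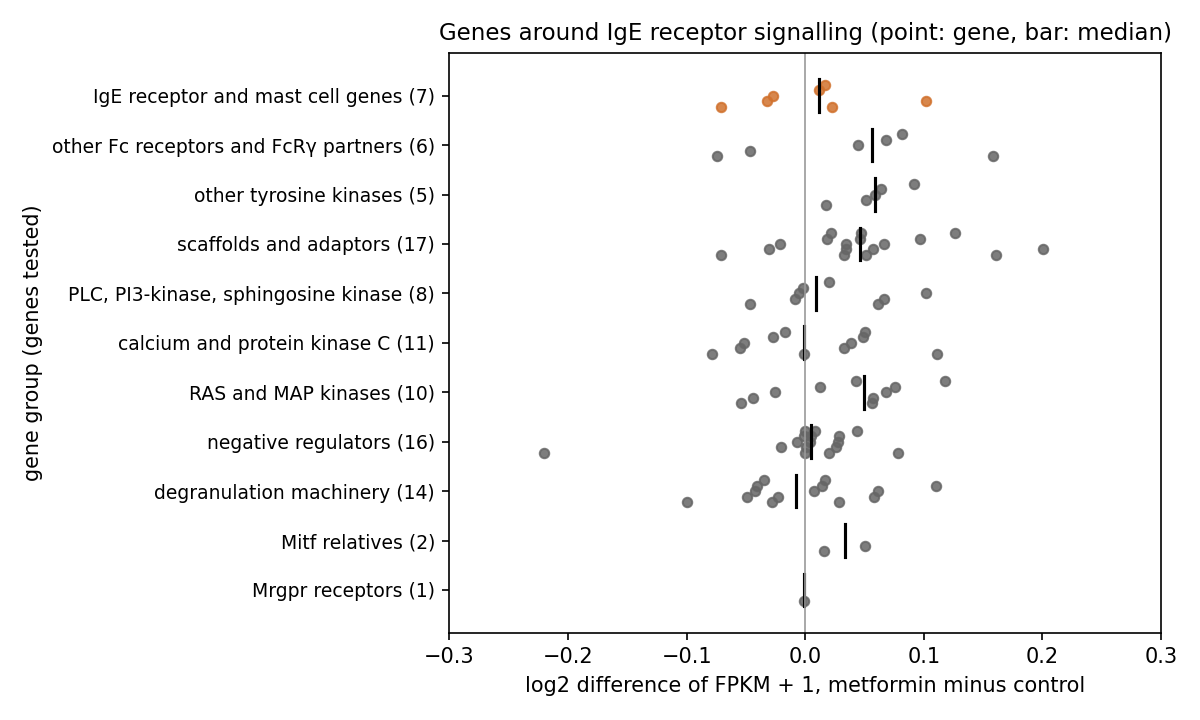
Log2 difference of FPKM + 1, metformin minus control, for the tested genes of the 10 lists and for the 7 tested genes of IgE receptor and mast cell signalling, with a point per gene and a bar at the median. The medians lie between -0.0075 and 0.06, and the lowest point, at -0.22, is Cd200r1.

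Defining markers were compared with the label of the cells. Of the germ cell markers, Dazl, Dppa3, Pou5f1, Gfra1, Nanos2 and Nanos3 were listed at 0 FPKM in all 6 libraries. Ddx4 reached at most 0.05 FPKM, and the highest were Zbtb16 and Ifitm3 with means of 1.085 and 0.662 FPKM. The study characterised its line by RT-PCR for germ cell genes and by staining for MVH, the product of Ddx4. Those assays were not analysed here, and the levels given are those of the RNA-seq table alone. Of 11 mast cell markers 4 had at least 10 FPKM, namely the carboxypeptidase Cpa3 (352 FPKM), the receptor Kit (118 FPKM), Tph1 (60.0 FPKM) and Il1rl1 (32.8 FPKM). The tryptases Tpsb2 and Tpsab1 and the chymase Mcpt4 were listed at 0, and Cma1, Mcpt1, Mcpt2 and Hdc had means of at most 0.148 FPKM. The summed level of this list was 564 to 597 FPKM in the control group and 545 to 557 FPKM with metformin. Of its 4 tested markers only Cpa3 was lower, with 366 and 338 FPKM on average, a log2 difference of -0.11 and adjusted p = 0.369 from limma. Its groups did not overlap, which was so for 17.0% of all genes tested. Kit, Tph1 and Il1rl1 had log2 differences of 0.0034, 0.03 and 0.02. The part of Cpa3 in the values of the 10 genes was not tested.

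For basophils, Il3ra, Mcpt8 and Cd200r3 had means of 1.08, 0.808 and 0.662 FPKM, and Prss34 was listed at 0. The macrophage list was summed to 63.2 to 67.1 FPKM in the control group and 61.5 to 67.1 FPKM with metformin, nearly all of it Adgre1 with 58.3 FPKM and Cd68 with 6.16 FPKM, while Csf1r had 0.0117 FPKM. The platelet list summed to 51.9 to 57.3 and 51.2 to 54.8 FPKM, led by Itga2b (38.4 FPKM) and Pf4 (12.2 FPKM), with Gp6 listed at 0. Neutrophil, T cell and B cell markers summed to at most 0.48, 0.27 and 0.10 FPKM in any library, and the melanocyte list, relevant to Mitf, to at most 0.60 FPKM with Tyr and Tyrp1 listed at 0. Fibroblast markers, which the STO feeder cells could bring, summed to 0.51 to 0.80 FPKM in the control group and 0.57 to 0.66 FPKM with metformin, and Dcn was the highest with 0.27 FPKM. In libraries of mixed RNA, fewer cells of a type and less RNA per cell cannot be told apart.

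**Figure D4:**
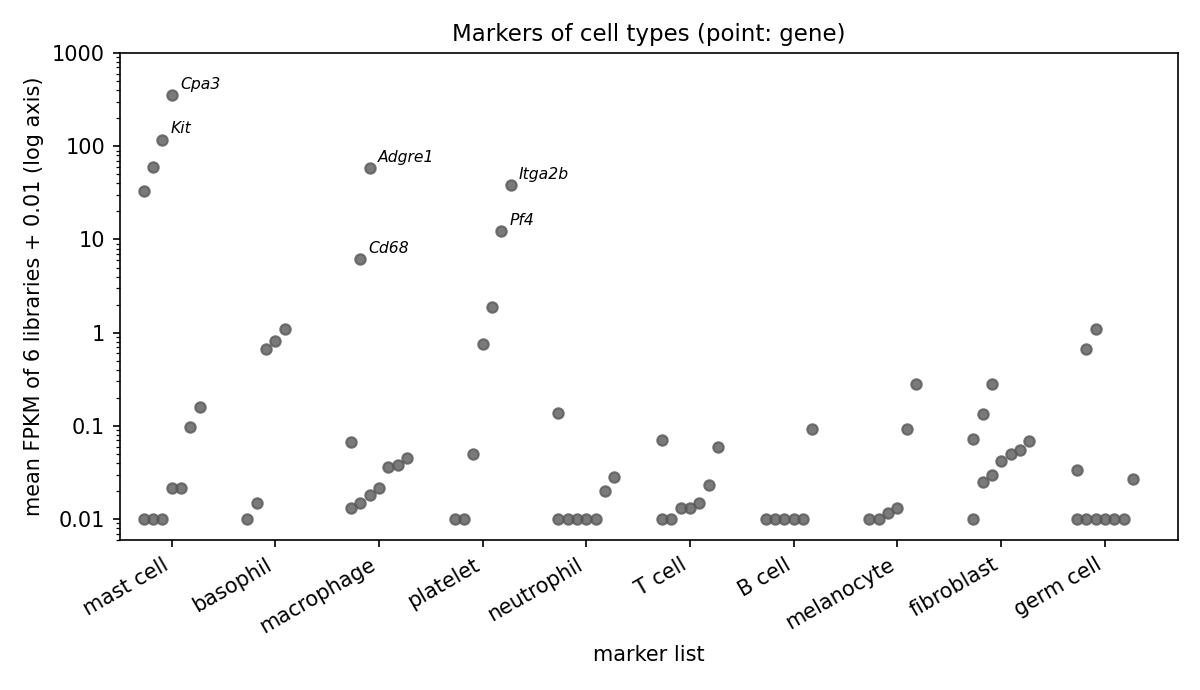
Mean FPKM over the 6 libraries, plus 0.01, on a log axis for each gene of 10 marker lists, so that a gene listed at 0 is drawn at 0.01. Mast cell markers reach 352 FPKM in Cpa3, with 3 genes of that list at 0. The highest mean of a germ cell marker is 1.085 FPKM, that of Zbtb16.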

How the data were processed

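RNA-seq was analysed in 3 control and 3 metformin libraries, grouped by the sample titles. The authors deposited FPKM values rounded to 2 decimals, which include their mapping, counting and normalization. The submitters' processing notes name HISAT2, DESeq2 and mm9 without a role, but gene positions in the table are those of GRCm38. The labels and the paper name different library kits, and the use of strand in counting is not given in the sources used here. Symbols were matched for 32589 of 55401 genes by Ensembl identifier, older symbols through the RefSeq table of GRCm38.p6 with overlapping positions required.

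The genes and lists were chosen with earlier results of these data known. FPKM was tested as log2(FPKM + 1) with limma 3.58.1 (R 4.3.3, eBayes with a trend, two-sided), for genes averaging 1 FPKM or more, without a replicate block. Values on this scale understate changes of low genes. The fit was tested on simulated data. Single genes were compared by exact permutation tests (scipy 1.17.1). The alternatives comprised the pseudocount 0.1, testing all genes above 0 or only those averaging 10 FPKM or more, rescaling to the same sum (TPM), quantile normalization, median centring, no trend, the replicate block and each library left out. In each list the genes named were up to 4 with the highest mean (3 for markers), those with an adjusted p under 0.05 and, over all lists, the gene with the smallest p. For markers those at 0 are also named. Others were named after their values were seen, and a few genes that the rule names are not reported here. Depth was estimated from single-exon genes under 400 bp, using 271 to 290 values per library that imply few fragments. The depth was chosen to bring these values closest to whole fragments, and 100% of them were then within 0.1. Among genes averaging 1 FPKM or more, no pair of libraries shared more than 1.48% of values.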

Additional observations from a re-analysis of the deposited data

How the results depend on the processing

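None of the 7 tested genes and no tested gene of the 10 lists had an adjusted p under 0.05 (limma) under any of the 14 alternatives run. Ms4a2 could be tested only without the filter, and Fcer1a and Mrgprb2 not at all. Lat kept a positive log2 difference, between 0.08 and 0.13, with an adjusted p of 0.248 to 0.549. Lyn, Fcer1g and Mitf stayed below 0 and Btk and Syk above 0, whereas Lat2, at 0.01 with all libraries, ranged from -0.0101 to 0.0297 when single libraries were left out, with -0.0101 without metformin repeat 2 and -0.0032 without control repeat 2. Groups did not overlap for 1 of the 7 tested genes, beside 17.0% of all genes tested. With a library left out the number was 1 to 4 of the 7, beside 26.8% to 27.7% of all genes tested. It was 3 without control repeat 1 (Syk, Btk and Lat), beside 27.1%. Without metformin repeat 3 it was 4 (Fcer1g, Lyn, Lat and Mitf), beside 27.7%. Over all genes, 3 passed, 7 when the 22809 genes above 0 were tested, and 3 to 4 with a library left out. With the replicate number as a block, 2 genes passed over all, and 0 of the 7. The sample titles show only that the repeats share a number. The deviations of same-numbered libraries correlated at -0.03, 0.02 and 0.05 across genes, against -0.05 to 0.03 for other pairs. Not every library correlated best with its own number, but with 3 libraries per group these values cannot show that there was no pairing. Depth limits Fcer1a and Mrgprb2, where a level under that of 3 fragments cannot be told from 0 in a single library. It also limits Ms4a2, which rests on few fragments. No such level was computed for the genes of the lists, so their means near 0 may not differ from 0.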
